A study of Mus musculus with 54 samples.

Results

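CTCF bound next to the starts of long noncoding RNA genes at 911 sites of the mouse genome, of 52646 CTCF sites called in at least 2 of the 22 CTCF peak lists of this series. Overlapping peaks of the 22 lists were merged into 68126 sites. A site was kept when at least 2 libraries called it, when its median summit lay within 1 kb of the start of a lincRNA, antisense or processed_transcript gene of GENCODE vM21, and when that summit was over 1 kb from every protein-coding gene start. The 911 sites lay at 875 genes, 36 of which held more than 1 site, so that 9.11% of the 9603 noncoding genes of these 3 types had one. By type, 466 sites were at lincRNA genes, which lie between coding genes, 341 at antisense genes, which are transcribed from the opposite strand of another gene, and 104 at the mixed class of processed transcripts. They were compared with 7990 CTCF sites within 1 kb of a protein-coding start and with 43745 sites near neither kind of start, called other sites from here on.

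CTCF is a zinc finger protein that recognizes a long DNA motif through its central fingers and halts the cohesin ring as it extrudes chromatin, so that pairs of bound sites anchor loops. Rad21 and Smc3 are core subunits of that ring. The first zinc finger, ZF1, lies outside the fingers that read the core motif and is one of the regions through which CTCF contacts RNA. Long noncoding RNAs are transcribed from promoters of their own without coding for protein, often antisense to or beside a developmental gene.

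Chromatin immunoprecipitation and sequencing (ChIP-seq) of CTCF was done in E14 mouse embryonic stem cells (ESCs) and in neural progenitor cells (NPCs), which were derived from the ESCs over 2 days on laminin in N2B27 medium. The rescue lines shared a CTCF-AID2 degron, in which both endogenous CTCF alleles carried mAID-eGFP and OsTir1(F74G) was expressed from Rosa26, and a dox-inducible Flag-Halo CTCF, either WT or ΔZF1, at the Tigre locus. These cells received 1 µM 5-Ph-IAA to degrade the endogenous protein and 1 µg/ml dox to induce the rescue for 24 hours. The rescue groups were ESC-WT and NPC-WT and, for the mutant, ESC-ΔZF1 and NPC-ΔZF1, each with 4 CTCF libraries and with 2 Rad21 and 2 Smc3 libraries beside each. A second set held NPCs of parental E14TG2a cells (E14) and of the homozygous PodxlpA and Grb10pA lines, in which an eGFP and SV40 polyadenylation cassette truncates the Podxl or the Grb10 transcript, with 2 CTCF and 2 Smc3 libraries each and neither auxin nor dox in their labels. The rescue protein came from a transgene and not from the CTCF promoter. Peak lists hold no expression values, so neither the ESC or NPC identity nor the loss of endogenous CTCF could be checked here. The paper describes the ChIP-seq replicates as biological, and the labels do not say which came from separate cultures. The p-values measure the spread between these libraries, which may include technical differences.

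The sequence around the summit is printed for 10 sites that carry the contrasts described further on. Gm31408, 4930478P22Rik, Gm48548 and Gm15868 were called in every CTCF library. 4930503O07Rik and Slfn5os were called in fewer ESC-ΔZF1 than ESC-WT libraries, and AW495222 and AL592112.1 in no NPC-ΔZF1 library. Gm15983 had CTCF without a cohesin peak, and Zfp469 had a peak in all 22 cohesin libraries. Each window spans 101 bp centred on the median summit (GRCm38, also called mm10) and is written 5′ to 3′ on the strand of the noncoding gene. Capitals mark the stretch closest to the 14-letter CTCF core consensus on either strand, and where the motif lies on the opposite strand they read as its reverse complement.
Gm31408, chr9:31559600-31559700, plus strand: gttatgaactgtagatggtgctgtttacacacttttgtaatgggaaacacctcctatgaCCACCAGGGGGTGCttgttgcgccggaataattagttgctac
4930478P22Rik, chr5:35361984-35362084, plus strand: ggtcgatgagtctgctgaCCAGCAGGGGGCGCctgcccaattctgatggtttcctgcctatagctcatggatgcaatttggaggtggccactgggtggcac
Gm48548, chr13:53775799-53775899, plus strand: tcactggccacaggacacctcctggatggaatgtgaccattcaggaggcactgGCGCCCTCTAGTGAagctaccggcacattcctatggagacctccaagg
Gm15868, chr16:14311526-14311626, plus strand: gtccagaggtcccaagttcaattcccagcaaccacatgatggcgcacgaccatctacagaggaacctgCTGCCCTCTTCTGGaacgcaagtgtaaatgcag
4930503O07Rik, chr1:194223111-194223211, minus strand: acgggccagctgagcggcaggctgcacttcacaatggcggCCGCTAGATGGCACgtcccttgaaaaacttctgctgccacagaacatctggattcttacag
Slfn5os, chr11:82959757-82959857, minus strand: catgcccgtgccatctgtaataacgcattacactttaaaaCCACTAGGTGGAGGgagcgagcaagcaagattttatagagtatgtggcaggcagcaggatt
AW495222, chr13:93719105-93719205, minus strand: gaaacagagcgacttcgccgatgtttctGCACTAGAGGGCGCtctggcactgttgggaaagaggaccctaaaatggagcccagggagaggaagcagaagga
AL592112.1, chr17:50237471-50237571, minus strand: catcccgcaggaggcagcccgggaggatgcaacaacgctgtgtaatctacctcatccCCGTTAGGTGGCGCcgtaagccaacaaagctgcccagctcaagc
Gm15983, chr16:5254421-5254521, plus strand: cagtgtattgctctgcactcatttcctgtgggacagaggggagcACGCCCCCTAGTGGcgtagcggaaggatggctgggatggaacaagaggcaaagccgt
Zfp469, chr8:122269578-122269678, plus strand: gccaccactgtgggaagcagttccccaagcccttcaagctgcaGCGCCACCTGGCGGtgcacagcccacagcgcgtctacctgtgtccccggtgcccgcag
Sites without the motif were left out when these were chosen, so all 10 windows held the core consensus with at most 2 mismatches. It lay on the strand of the noncoding gene in 6 and on the opposite strand in 4.

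The sites gathered just upstream of the noncoding gene starts. The median summit lay 43 bp upstream of the start, and 158 summits were within 100 bp, 324 within 250 bp and 543 within 500 bp of it. The 100 bp before the start held 108 sites and the 100 bp after it 49. At protein-coding starts, the same bins held 970 and 774 sites, and the 300 bp before and after the start held 1760 and 2873. For noncoding starts these were 239 and 132. Thus coding promoters had more CTCF sites after the start than before it, and noncoding promoters fewer. Summits fell outside the noncoding gene in 505 cases, 497 upstream of its start and 8 beyond its end, and in an exon in 210 and an intron in 196. A protein-coding gene surrounded 374 of the sites, with the summit in its intron in 220, its coding sequence in 80, its UTR in 57 and another exon in 17. The nearest coding start was a median of 18541 bp away. At the edge of the rule, the 71 sites 900 to 1000 bp from a start were called in a median of 6 libraries and the 59 sites beyond 1000 and up to 1100 bp in a median of 10.

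The core consensus was found within 50 bp of the summit at 526 of the 911 sites (57.7%), against 31.3% of coding promoter sites, 75.7% of other sites and 68.7% of all sites. Windows of the same length 1000 bp away held it in 2.85%, 2.87% and 2.92% of the 3 classes. A match describes letters in the window and not a proven contact. LincRNA promoters had the motif most often (65.5%), antisense promoters in 52.8% and processed transcripts in 39.4%. GC content over 301 bp followed the reverse order, with medians of 51.3%, 56.8% and 62.6%, and 68.4% at coding promoters against 47.5% at other sites. The ratio of observed to expected CpG was 0.431 at lncRNA promoters, 0.817 at coding promoters and 0.222 at other sites. Hence, lncRNA promoters were intermediate between the other classes in motif, GC and CpG content.

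Motif content changed across the noncoding start. In the 300 bp before it, 61.1% of sites held the motif, and in the 300 bp after it 39.4%. For coding starts these shares were 45.1% and 18.9%. In the 100 bp before the noncoding start, the motif ran along the strand of the gene at 49 sites and along the opposite strand at 20. At coding starts, the same bin held 336 and 124. Over all 911 sites the orientations were closer, with 288 motifs on the strand of the gene, 238 on the opposite strand and 385 sites without one. Among the 100 bp bins, the one just before the start thus held the largest excess of motifs on the strand of the gene, at coding and noncoding genes alike.

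**Figure D1:**
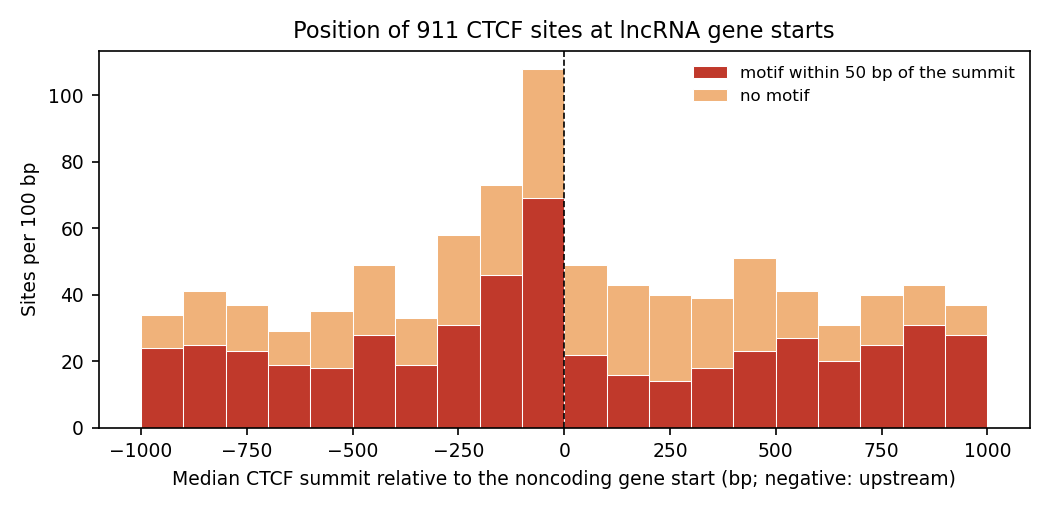
Number of lncRNA promoter sites per 100 bp (y axis) against the distance of the median CTCF summit from the noncoding gene start in bp (x axis, negative upstream), stacked by whether the core motif lies within 50 bp of the summit. The bin just upstream of the start is the tallest, with 108 sites of which 69 hold the motif, and the bin just downstream holds 49 sites with 22 motifs.

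The number of libraries that called a site was a median of 9 for lncRNA promoters and 7 for the other classes. All 22 CTCF libraries called 65 of the 911 sites (7.14%), against 5.58% of coding promoter sites, 3.14% of other sites and 3.58% of all sites, and 109 were called in exactly 2. The motif was more common where more libraries called a site. It was present at 35.8% of the 310 sites called in 2 to 5 libraries, 59.3% of the 258 in 6 to 12, 76.3% of the 278 in 13 to 21 and 76.9% of the 65 in all 22. By distance from the start, sites at 0 to 250 bp, 250 to 500 bp, 500 to 750 bp and 750 to 1000 bp had medians of 10, 9, 9 and 8 libraries.

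Peak lists differed in length and depth. The rescue CTCF lists held 5755 to 45941 peaks, the E14, PodxlpA and Grb10pA CTCF lists 15505 to 28805, the Rad21 lists 1306 to 10410 and the Smc3 lists 8167 to 34086. No read counts were used, but fold enrichment and p-value together give a background fragment density, which was 1.14 to 2.39 fragments per bp in CTCF rescue replicates 1 and 4 and 0.392 to 0.905 in replicates 2 and 3. Peaks were also wider in the first pair, with medians of 352 to 447 bp against 190 to 301 bp. The labels do not name these pairs as batches, and each comparison is given within them as well. No 2 CTCF lists shared more than 0.0194% of identical intervals.

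The share of lncRNA promoter sites called in a library was similar in ESC-WT, ESC-ΔZF1 and NPC-WT and spread widely within each group. In ESC-WT it was 75.3%, 47.0%, 43.1% and 30.7% in replicates 1 to 4 (49.0% ± 18.8, SD, n = 4). In ESC-ΔZF1 it was 82.0%, 39.3%, 30.85% and 41.6% (48.4% ± 22.9, SD, n = 4). ESC-ΔZF1 thus had the highest value of all ESC libraries, and the groups overlapped. In NPC-WT it was 64.2%, 47.0%, 48.3% and 42.6% (50.5% ± 9.45, SD, n = 4). In NPC-ΔZF1 it was 36.7%, 25.7%, 15.4% and 68.4% (36.5% ± 23.0, SD, n = 4). Of the NPC-ΔZF1 libraries, 3 lay below all of NPC-WT and 1 above all of it. ΔZF1 minus WT was −0.60 percentage points in ESCs and −14.0 in NPCs. Within replicates 1 and 4, it was 8.78 and −0.88, and within replicates 2 and 3 −9.99 and −27.1, so that the sign in ESCs depended on the pair of replicates. Other sites moved by −5.39 in ESCs and −16.8 in NPCs, and coding promoter sites by 9.35 and −4.33.

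**Figure D2:**
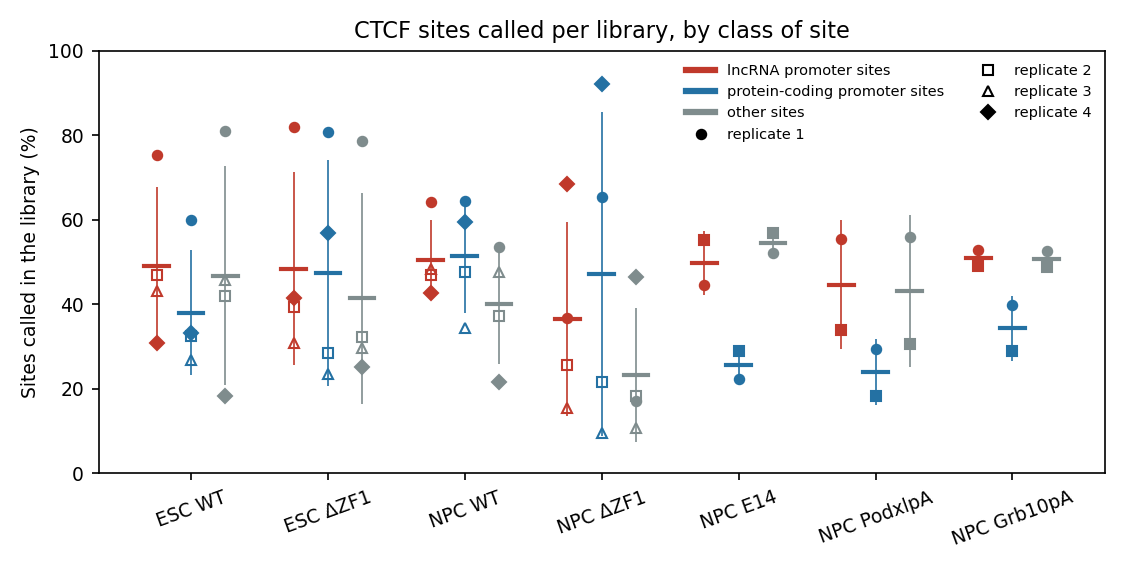
Percentage of CTCF sites called (y axis) in each CTCF library, by group (x axis) and class of site, with thick bars for the group mean, thin lines for the SD and a symbol for each replicate (open for rescue replicates 2 and 3). LncRNA promoter sites of NPC-ΔZF1 run from 15.4% to 68.4%, around the 42.6% to 64.2% of NPC-WT.

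To compare sites across libraries, those called in at least 3 of 4 libraries of a group were taken as reproducible. These were 359 lncRNA promoter sites in ESC-WT, 308 in ESC-ΔZF1, 377 in NPC-WT and 173 in NPC-ΔZF1. All 4 groups shared 158 of them (17.3% of the 911, 10.3% of all sites), and 438 (48.1%, 56.5% of all sites) were reproducible in none. In ESCs, ΔZF1 kept 255 of the 359 WT sites (71.0%, Wilson 95% interval 66.1 to 75.5). Coding promoter sites were kept at 81.4% and other sites at 61.5%. Sites with and without the motif were kept at 71.1% and 70.9%. By type, 67.9% of lincRNA, 72.4% of antisense and 83.3% of processed transcript promoter sites were kept. These intervals cover counting error only and take no account of the spread between libraries.

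In NPCs, ΔZF1 kept 171 of the 377 WT sites (45.4%, interval 40.4 to 50.4), while coding promoter sites were kept at 43.8%, other sites at 34.5% and all sites at 36.7%. In the other direction, 171 of the 173 NPC-ΔZF1 sites (98.8%) were reproducible in NPC-WT, against 94.6% over all sites. LincRNA promoter sites were kept at 52.2% (45.0 to 59.4), antisense at 38.9% (31.5 to 46.9) and processed transcript sites at 39.6% (27.02 to 53.7). With the motif, 49.8% were kept, and without it 35.6%. NPC-ΔZF1 replicates 1 to 3 had 13639, 10242 and 5755 peaks and replicate 4 had 33452, against 15052 to 30555 in NPC-WT. When the 5755 most significant peaks of every CTCF library were used, 73.4% of lncRNA promoter sites were kept in NPCs and 79.3% in ESCs, against 68.8% and 86.5% of coding promoter sites and 55.5% and 69.1% of other sites. Within replicates 1 and 4 the kept shares were 71.0% in NPCs and 86.0% in ESCs, and within replicates 2 and 3 33.1% and 59.0%. With equal lists and within both pairs, NPCs kept a smaller share than ESCs. With equal lists, however, the intervals overlapped, at 65.2 to 80.3 in NPCs and 71.7 to 85.2 in ESCs. Without NPC-ΔZF1 replicate 3, the shortest list, and with 2 of the 3 left taken as reproducible, 74.5% were kept in NPCs.

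**Figure D3:**
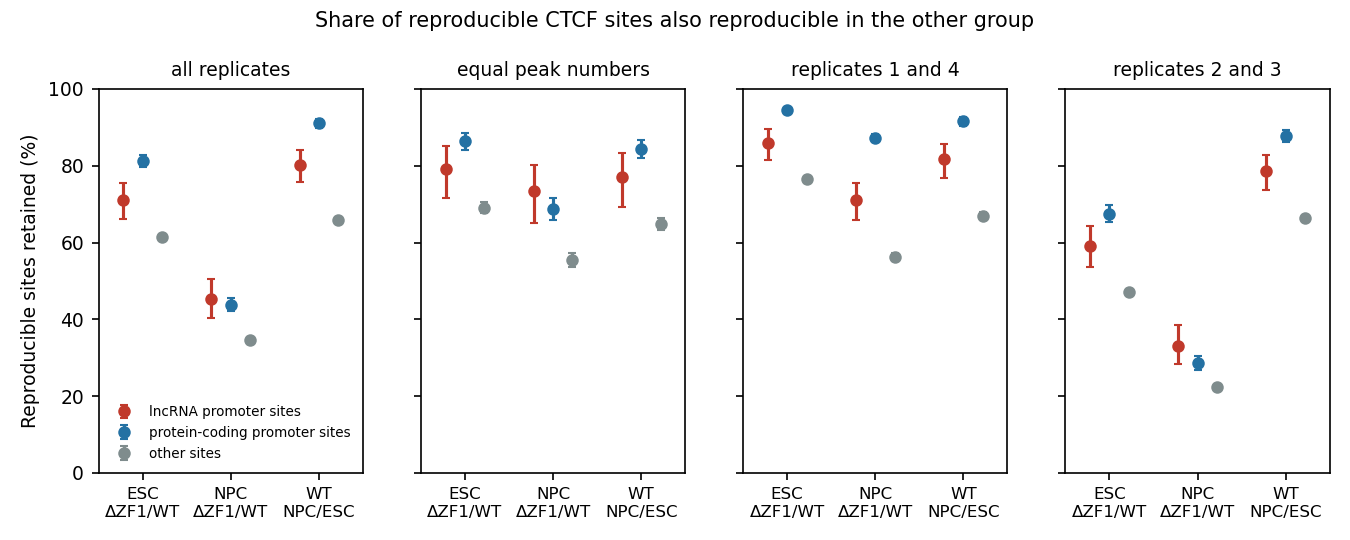
Percentage of reproducible sites of the reference group that were reproducible in the other group (y axis), with Wilson 95% intervals, for ESC-ΔZF1 of ESC-WT, NPC-ΔZF1 of NPC-WT and NPC-WT of ESC-WT (x axis) by class of site, with all replicates, with equal peak numbers and within each pair of replicates. In NPCs the lncRNA promoter sites stand at 45.4% with all replicates and at 73.4% with equal peak numbers.

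A complete switch, with a call in all 4 libraries of one group and none of the other, was rare. In ESCs, of 217 sites with a call in every WT library, 0 lacked one in each ΔZF1 library (0.311% over all sites), and 0 of 170 switched the other way (0.0149% over all sites). In NPCs, 5 of 227 sites (2.20%) called in every WT library were called in no ΔZF1 library, near the 2.52% over all sites, and 0 of 81 switched the other way (0% over all sites). The 5 sites lay at AW495222, AL592112.1, Gm15873, Gm17508 and 4930550C17Rik, and 4 of them carried the motif, on the strand of the noncoding gene each time. The exception was Gm15873, an antisense gene across coding sequence of Dnaaf3, a dynein assembly factor. The count rose to 24 without NPC-WT replicate 4 and to 24 without NPC-ΔZF1 replicate 4, and was 3 with equal peak numbers. Shares over all sites are not given for these settings.

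In NPC-WT, the strength of these sites varied between libraries, from weak calls near the bottom of a list to strong ones. AW495222 (chr13:93718778-93719398), an antisense gene whose start lies in an intron of Dmgdh, had fold enrichments of 7.82, 7.77, 17.8 and 4.88 in the 4 NPC-WT libraries, where fold enrichment is the height of the peak over its local background. AL592112.1 (chr17:50237233-50237851), a lincRNA gene with the summit 965 bp upstream of its start, had 8.95, 15.7, 11.3 and 6.01. Gm17508 (chr9:31082150-31082837) had 9.29, 7.95, 11.1 and 3.25. Binding was not confined to NPC-WT at these genes, because AL592112.1 was called in 3 and Gm17508 in all 4 of the ESC-ΔZF1 libraries. The second 4930550C17Rik site (chr13:56244525-56244967) lies 7398 bp from the start of Neurog1, a proneural transcription factor gene, and had 10.5, 6.49, 11.55 and 4.33 in NPC-WT. E14 NPCs, with their own CTCF, called all 5 sites in both libraries, at 20.6 and 17.3 for AW495222 and 11.4 and 14.2 for AL592112.1.

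Cohesin peaks were present at these 5 sites in NPC-ΔZF1. Smc3 replicate 1 of NPC-ΔZF1 had a peak at all 5 and replicate 2 at 4, the exception being AW495222. Rad21 peaks of NPC-ΔZF1 were found at Gm15873 in both libraries, where NPC-WT had none, and at none of the other four. At AL592112.1, both Rad21 libraries of NPC-WT had a peak. The NPC-ΔZF1 Smc3 lists were the longest of all, with 30511 and 34086 peaks against 27796 and 13695 in NPC-WT, and the part of list length in these overlaps was not tested.

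In ESCs, 7 of the 8 sites with the largest difference in the number of libraries calling them were called in fewer ΔZF1 libraries. The same direction was seen over all sites. There, 64.3% of reproducible ESC-WT sites were reproducible in ESC-ΔZF1 and 82.5% of reproducible ESC-ΔZF1 sites in ESC-WT. 4930503O07Rik (chr1:194222898-194223398), a lincRNA gene with its nearest coding start 395057 bp away, had 22.2, 12.7, 8.33 and 6.07 in the 4 WT libraries and 11.75 in ΔZF1 replicate 1 alone. Slfn5os (chr11:82959565-82960101), antisense to the Schlafen gene Slfn5, had 9.03, 6.01 and 8.89 in WT replicates 1 to 3 and no call in ΔZF1. Gm43538 (chr3:38613705-38614108) had 12.1, 11.1 and 5.55 in the same WT libraries and no call in ΔZF1. In NPCs, 4930503O07Rik was called in 3 WT libraries and no ΔZF1 library, Slfn5os in 2 and none, and Gm43538 in neither. D430036J16Rik (chr9:81631431-81632161), antisense across the coding sequence of the serotonin receptor gene Htr1b, was called in 4 of 4 WT and 1 of 4 ΔZF1 libraries in both cell types. Gm14235 (chr2:168153384-168153858) went the other way, with 8.42, 8.07 and 4.94 in ΔZF1 replicates 1, 3 and 4 and no call in WT. It had no motif within 50 bp of the summit and no cohesin peak in any library.

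Strength was then compared by ranking fold enrichment within each library and fitting limma to normal scores of the ranks over all sites called in every library compared. With Benjamini-Hochberg adjustment at 0.05, limma called 0 of 148 lncRNA promoter sites between ESC-ΔZF1 and ESC-WT (0.0386% over all sites) and 0 of 77 between NPC-ΔZF1 and NPC-WT (0% over all sites). At an unadjusted p under 0.05 there were 8 (5.41%, against 8.38% over all sites) and 6 (7.79%, against 7.52%), while blocking on the replicate number gave 26 in ESCs (17.6%, against 17.9%). Only sites called in all 8 libraries could be tested, so sites without a call were left out. With log2 fold enrichment in place of ranks it called 0 of both, against 0.270% over all sites in ESCs and 0.0845% in NPCs. The interaction of cell type and ΔZF1 gave 0 of 74 (0% over all sites), and 3 had an unadjusted p below 0.05 (4.05%, against 2.17% over all sites). The median effect of ΔZF1 was −0.03 SD units in ESCs and 0.02 in NPCs, against −0.01 and 0.01 over all sites.

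The site closest to the threshold in ESCs was that of Notumos (chr11:120658720-120659496), antisense to the Wnt deacylase gene Notum. Its fold enrichments were 49.55, 22.6, 26.3 and 16.4 in ESC-WT and 21.4, 11.9, 11.4 and 8.90 in ESC-ΔZF1. WT was higher in all 4 same-numbered pairs, by ranks the difference was −0.94 ± 0.26 SD units (SE), and limma's adjusted p was 0.321. With the replicate number as a block it was 0.1015. In NPCs, the smallest adjusted p was 0.519, at A230083G16Rik (chr6:124917054-124918010), where ΔZF1 was higher by 0.95 ± 0.32 SD units (SE).

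WT NPCs and WT ESCs shared most lncRNA promoter sites. NPC-WT held 288 of the 359 reproducible ESC-WT sites (80.2%, interval 75.8 to 84.0), against 91.1% of coding promoter sites and 65.9% of other sites, and ESC-WT held 76.4% of the NPC-WT sites. Neither cell type had a complete switch, with 0 of 217 called in ESC-WT alone (0.383% over all sites) and 0 of 227 in NPC-WT alone (0.429% over all sites). Without ESC-WT replicate 1 the latter became 10, without NPC-WT replicate 3 it became 6, and without ESC-WT replicate 4 the former became 6. For these settings no share over all sites is given. Without a block, limma called 0 of 174 sites (0.251% over all sites), with 36 at an unadjusted p under 0.05 (20.7%, against 16.2% over all sites). With the replicate number as a block it called 6 of 174 (3.45%, against 2.87% over all sites), and with log2 fold enrichment also 6 (2.49% over all sites).

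The smallest limma p between the WT cell types was at Gm26666 (chr6:145048040-145048883), an antisense gene called in all 8 libraries, with fold enrichments of 6.41, 6.17, 6.70 and 3.48 in ESC-WT and 7.67, 10.15, 11.01 and 7.87 in NPC-WT. Every NPC library was above every ESC library. The difference was 1.72 ± 0.32 SD units (SE) with a limma adjusted p of 0.0571, or 0.0350 with the replicate block. By number of libraries, CAAA01066123.1 site 2, Gm29502, 1700052K11Rik, Gm42849, Gm11915 and Gm32569 were each called in all 4 NPC-WT libraries and only in replicate 1 of ESC-WT, the longest list of the WT libraries. Gm26691 and 9330121J05Rik were called in 3 and 0. Gm11915 (chr4:28814773-28815730) is antisense within Epha7, an ephrin receptor gene, and had 5.66 in ESC-WT replicate 1 and 6.66, 6.73, 7.35 and 7.93 in NPC-WT. Gm26691 (chr3:134239567-134240533) is antisense across coding sequence of Cxxc4, an inhibitor of Wnt signalling, and had 6.47, 5.03 and 5.80 in NPC-WT replicates 1, 2 and 4. The motif was within 50 bp of the summit at only 2 of these 8 sites, Gm29502 and Gm42849.

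In the second set of NPCs, lncRNA promoter sites were called at 44.5% and 55.2% in E14, 55.4% and 33.9% in PodxlpA and 52.9% and 49.0% in Grb10pA. The lowest value came from the shortest list, with 15505 peaks, and the groups overlapped. Both libraries of E14 called 380 sites. PodxlpA called 252 of these in both libraries (66.3%, interval 61.4 to 70.9; 57.5% of all sites) and Grb10pA 309 (81.3%, interval 77.1 to 84.9; 73.6% of all sites). The comparisons share the E14 libraries. Limma, fitted over the 6 libraries, called 0 of 234 lncRNA promoter sites for PodxlpA (0% over all sites) and 0 of 234 for Grb10pA (0% over all sites), with 16 (6.84%, against 5.99% over all sites) and 45 (19.2%, against 15.9%) at an unadjusted p under 0.05. On log2 fold enrichment in place of ranks it called 9 of 234 for Grb10pA (3.85%, against 2.16% over all sites) and 0 for PodxlpA.

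The sites closest to the threshold for Grb10pA were all stronger in that line. 9330171B17Rik had fold enrichments of 5.56 and 8.57 in E14, 7.85 and 6.67 in PodxlpA and 23.95 and 19.6 in Grb10pA. 1700028I16Rik (chr10:82811698-82812375) had 8.78 and 10.95 in E14, 13.9 and 8.19 in PodxlpA and 34.8 and 24.5 in Grb10pA. Both Grb10pA libraries were above the other 4 at both sites, and limma's adjusted p was 0.199 for each. For PodxlpA, Snhg15, a small nucleolar RNA host gene, had 5.58 and 7.23 in E14, 4.99 and 4.02 in PodxlpA and 11.1 and 10.7 in Grb10pA, with a limma adjusted p of 0.819 against E14.

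Cohesin was found at lncRNA promoter sites about as often as at other sites in the rescue lines and more often than at coding promoter sites. Of the reproducible CTCF sites in ESC-WT, 66.0% and 37.05% had an Smc3 peak in the 2 Smc3 libraries, and 19.2% and 42.6% a Rad21 peak in the 2 Rad21 libraries. In ESC-ΔZF1 the Smc3 shares were 60.4% and 50.3%, and the Rad21 shares 8.77% and 11.4%. For Smc3 the libraries of WT lay on both sides of those of ΔZF1, whereas for Rad21 both WT libraries were above both of ΔZF1. In NPC-WT, 75.3% and 48.5% had an Smc3 peak and 23.3% and 29.2% a Rad21 peak. In NPC-ΔZF1, 89.6% had an Smc3 peak in each library, and 26.6% and 35.8% a Rad21 peak. With 2 libraries in each group, no exact test can reach 0.05. Means over the 2 Smc3 libraries were 51.5%, 37.7% and 53.6% for lncRNA promoters, coding promoters and other sites in ESC-WT, and 61.9%, 45.4% and 64.8% in NPC-WT. For Rad21 they were 30.9%, 17% and 30.6% in ESC-WT and 26.3%, 9.71% and 28.3% in NPC-WT. In the second set, Smc3 peaks were at 62.1% and 57.9% of the E14 sites, 44.3% and 61.5% of the PodxlpA sites and 52.0% and 49.0% of the Grb10pA sites. There, coding promoter sites were at 46.2% and 59.7%, 29.3% and 64.3%, and 32.8% and 45.95%, so that they were above lncRNA promoters in the second library of E14 and of PodxlpA.

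Cohesin peaks were more frequent at sites with the motif and at lincRNA promoters. In NPC-WT, the mean Smc3 share was 71.2% at lncRNA promoter sites with the motif and 41.5% at those without it, and the Rad21 share 33.6% and 10.2%. LincRNA promoters had Smc3 at 72.8% and Rad21 at 38.05%, antisense promoters at 52.7% and 14.4%. ESC-WT had the same order, with Smc3 at 59.7% of lincRNA and 38.6% of antisense promoter sites. LincRNA promoter sites also held the motif more often, and the 2 properties were not separated.

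The difference between ΔZF1 and WT was also measured on shared sites and with equal lists. On the 255 sites reproducible in both ESC groups, Rad21 peaks were at 21.2% and 43.5% in WT and 10.6% and 13.3% in ΔZF1, but the ΔZF1 Rad21 lists held 1306 and 2346 peaks against 3526 and 10410. On the 171 sites reproducible in both NPC groups, Smc3 peaks were at 86.55% and 62.6% in WT and 90.1% in each library of ΔZF1. Rad21 peaks were at 33.3% and 38.0% of them in WT and 26.9% and 36.3% in ΔZF1. With equal numbers of peaks per antibody, the mean Smc3 share was 60% in ESC-WT, 51.6% in ESC-ΔZF1, 49.6% in NPC-WT and 54.8% in NPC-ΔZF1, and the mean Rad21 share 18.15%, 12.3%, 13.7% and 9.135%. Thus with full lists and the reproducible sites of each group, ΔZF1 was above WT for Rad21 in NPCs and for Smc3 in ESCs. The latter means were 51.5% in WT and 55.4% in ΔZF1. With equal lists, ΔZF1 was below WT in both cases. On the 171 shared NPC sites, WT had the highest Rad21 share and ΔZF1 the lowest with full lists, so this order also depended on the sites compared.

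Sites that NPC-ΔZF1 did not keep still overlapped Smc3 peaks. Of the 206 lncRNA promoter sites reproducible in NPC-WT and not in NPC-ΔZF1, 66.0% and 36.9% had an Smc3 peak in WT, and 77.2% and 74.8% in ΔZF1. Rad21 peaks were at 15.05% and 21.8% of them in WT and 16.02% and 16.99% in ΔZF1. In ESCs, of the 104 such sites, 60.6% and 30.8% had an Smc3 peak in WT and 63.5% and 39.4% in ΔZF1, and 14.4% and 40.4% had a Rad21 peak in WT and 3.85% and 8.65% in ΔZF1. Other sites that were not kept in NPCs had Smc3 peaks at 71.8% and 44.8% in WT and 75.2% and 74.1% in ΔZF1, so this was not particular to lncRNA promoters. A site counted as not kept may still have been called in 1 or 2 libraries.

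**Figure D4:**
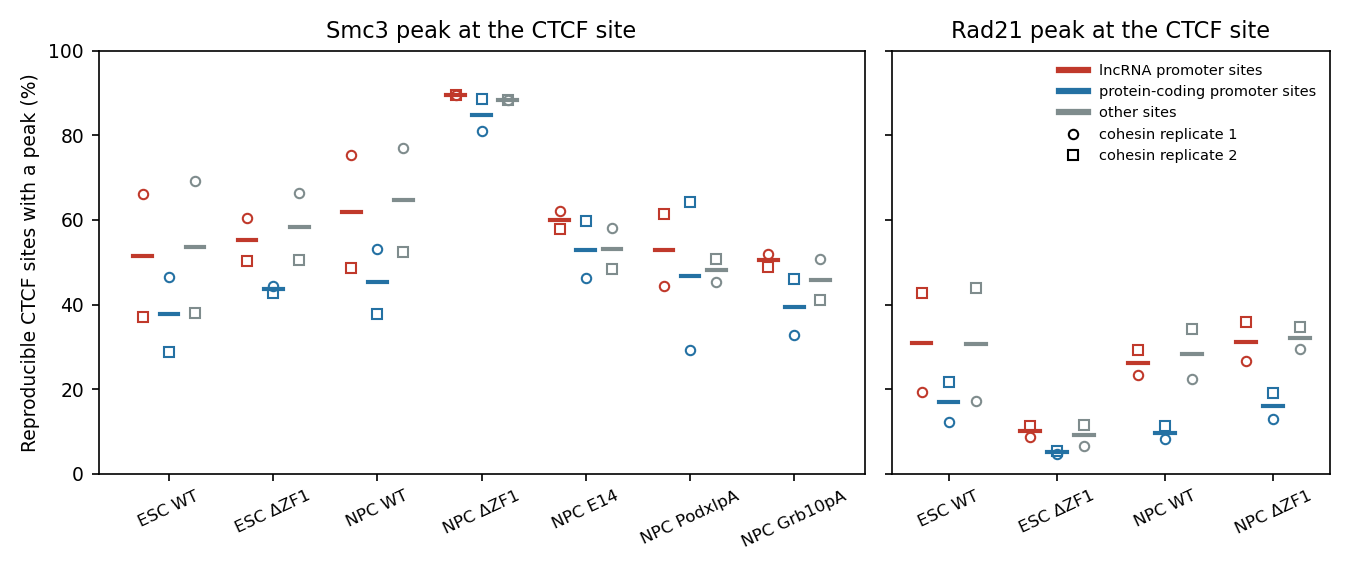
Percentage of reproducible CTCF sites with an Smc3 peak (left) or a Rad21 peak (right) on the y axis, by CTCF group (x axis) and class of site, with a bar for the mean of the 2 cohesin libraries and a symbol for each. LncRNA promoter sites lie close to other sites in the rescue groups, and NPC-ΔZF1 stands at 89.6% for Smc3 in both libraries.

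Most constitutive sites had cohesin, and a few did not. Of the 288 lncRNA promoter sites reproducible in both WT groups, 16 (5.56%) had no peak in any of the 22 cohesin libraries and 17 had one in all 22, with a median of 11 libraries. For coding promoter sites the share without cohesin was 6.92% and the median 7, and for other sites 6.27% and 12. The motif was present at 76.5% of the 272 sites with cohesin and at 43.75% of the 16 without it. The median percentile of fold enrichment was 75.8 with cohesin and 47.8 without, so the sites without cohesin were also weaker CTCF sites. Over all 911 sites, 238 had no cohesin peak.

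Examples of both kinds were bound in nearly every CTCF library. Gm15983 (chr16:5254180-5254748), antisense within an intron of Eef2kmt, was called in 19 libraries with fold enrichments of 23.4, 10.4 and 16.8 in ESC-WT replicates 1 to 3 and 9.05, 10.6 and 8.38 in NPC-WT replicates 1 to 3, and it had no cohesin peak. Gm49501 (chr15:101479118-101479804), whose summit is in coding sequence of the keratin gene Krt86, had 43.3, 21.3, 21.65 and 15.9 in ESC-WT and also no cohesin peak. Gm42418 had none either, but it overlaps ribosomal RNA repeat sequence and its values are uncertain. By contrast, Zfp469 (chr8:122269085-122270226), which vM21 lists as a lincRNA although the symbol is that of a zinc finger gene, had a cohesin peak in all 22 libraries with CTCF at 43.1, 36.3, 18.3 and 14.8 in ESC-WT. 2310015A10Rik, AC122818.1 and 2900072N19Rik site 1 had all 22 as well.

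The sites called in all 22 libraries with the highest ranks were led by Gm31408 (chr9:31559306-31560108), a lincRNA gene with the summit 41 bp inside its first exon. Its fold enrichments were 213, 71.5, 111 and 43.9 in ESC-WT, and 85.6, 72.9, 42.4 and 28.95 in ESC-ΔZF1. They were 75, 57.6, 56.4 and 34.8 in NPC-WT, and 19.8, 39.1, 12.6 and 16.4 in NPC-ΔZF1. Of the NPC-ΔZF1 libraries, 3 lay below all of NPC-WT, while the ESC groups overlapped. 4930478P22Rik (chr5:35361592-35362409) had 31.7, 43.5, 48.3 and 22.4 in NPC-WT and 15.6, 29.9, 16.8 and 19.3 in NPC-ΔZF1. Gm48548 (chr13:53775462-53776274) had 35.3, 51.3, 53.45 and 26.9 in NPC-WT and 13.9, 23.3, 15.4 and 25.9 in NPC-ΔZF1. At the former, 3 NPC-ΔZF1 libraries lay below all of NPC-WT, and at the latter all 4. Fold enrichment depends on the depth and background of a library, and by ranks limma called none of these. Gm31408 and AC113104.3 had a peak in all 22 cohesin libraries, 4930478P22Rik in 5 Rad21 and 14 Smc3 libraries, and Gm48548 in 12 Smc3 and no Rad21 libraries.

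Of 102 well-known noncoding genes in 7 partly overlapping lists, 25 (24.5%) had a site, against 9.11% of all noncoding genes. Of 30 host genes of small nucleolar RNAs or microRNAs, 9 had a site, and 7 of the 9 were reproducible in NPC-WT against 4 in each of the other rescue groups. Mir17hg, the host of an oncogenic microRNA cluster, Snhg17 and Epb41l4aos were called in all 22 libraries and Snhg7os in 21. Mir17hg had 28.7, 20.99, 15.96 and 10.6 in ESC-WT and 16.1, 31.1, 13.1 and 12.4 in NPC-WT. Snhg17, with its summit 19 bp upstream of the start and no motif, had 42.0, 15.65, 31.5 and 11.6 in ESC-WT and 27.6, 16.4, 22.4 and 16.2 in NPC-WT. NPC-ΔZF1 had 13.7, 21.96, 9.85 and 21.7 at Mir17hg and 13.01, 9.85, 5.50 and 15.5 at Snhg17. The groups overlapped at Mir17hg. At Snhg17 all 4 NPC-ΔZF1 libraries lay below NPC-WT in fold enrichment, but not in percentile within the library, which was 90.9, 50.9, 4.89 and 93.5 in NPC-ΔZF1 and 97.7, 87.3, 95.6 and 93.25 in NPC-WT. All 9 host gene sites overlapped an Smc3 peak in at least 1 library, while 238 of all 911 lncRNA promoter sites had no cohesin peak. None of the 9 overlapped a Rad21 peak, and the share of the 911 sites without one is not given here.

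Of 9 Hox-associated noncoding genes, 2 had a site. Hoxd3os1 (chr2:74715638-74716452), antisense within Hoxd3, was called in 21 libraries with 46.2, 24.35, 16.7 and 15.7 in ESC-WT and 14.2, 21.5, 14.85 and 9.63 in NPC-WT, and had a peak in all 22 cohesin libraries. Hoxaas3 was called in 2 libraries. Of 9 imprinted noncoding genes, Airn was called in 2 libraries and Nespas in 7. Of 5 genes of the X inactivation centre and related genes, Firre was called in 2 libraries, Ftx in 7 and Xist in 2, which were E14 replicate 1 at 5.49 and PodxlpA replicate 2 at 4.12. Of 28 genes listed as stem cell noncoding RNAs, Platr1, Platr4, Platr21 and Platr27 had a site, called in 3 to 7 libraries and reproducible in no rescue group. Of 14 neural genes, Emx2os was called in 8 libraries, 3 of them ESC-ΔZF1, and Six3os1 in 3. Crnde, beside the homeobox gene Irx5, was called in all 4 libraries of both WT groups and in 2 of each ΔZF1 group, with 8.89, 5.98, 6.60 and 4.25 in ESC-WT and 4.56, 10.2, 6.17 and 5.77 in NPC-WT. In both cell types the ΔZF1 libraries that called it were replicates 1 and 4, at 3.25 and 4.01 in ESCs and 4.11 and 6.71 in NPCs.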

How the data were processed

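CTCF, Rad21 and Smc3 ChIP-seq peak lists of 44 samples were used, and 10 input samples have no list. The authors aligned reads to mm10 with Bowtie2, filtered out alignments of MAPQ under 30, blacklisted regions with bedtools and duplicates with Picard, and ran a peak call for each library with MACS2 at q 0.01 (versions not given in the sources used here). The deposited lists give fold enrichment over local background as a ratio, −log10 p- and q-values, and a display score that was not used. Read counts were not analysed here. The peak names in the lists of replicate 4 carry the number 2, and the sample labels were followed.

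Peaks were merged by 1 bp of overlap with Python 3.11.15, numpy 2.4.6 and pandas 2.3.3, and sites were placed by GENCODE vM21 gene starts on GRCm38. Fold enrichment was ranked within each library, turned into normal scores and fitted with limma 3.58.1 in R 4.3.3 over all sites called in every library compared, in place of the DiffBind analysis of reads in the study, and tested on simulated data. Fragment numbers recovered from fold enrichment and p were whole within 0.002 in −log10 p for all peaks with −log10 p under 60. The core consensus was searched with at most 2 mismatches within 50 bp of the summit. Reproducible means 3 of 4 libraries, or 2 of 2 for E14, PodxlpA and Grb10pA. A cohesin overlap is at least 1 bp.

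The named sites are all sites at listed noncoding genes, the 10 called in most libraries with the highest ranks, the 8 with the largest difference in libraries calling in each rescue comparison, the 3 with the smallest limma p in each comparison, and those with no or most cohesin peaks. The members and lists were chosen with earlier results of these data known. Same-numbered ESC-WT and ESC-ΔZF1 libraries deviated together (correlations 0.111 to 0.332, highest with the own number in 8 of 8), which counts as paired by data and not by label. NPC-WT and NPC-ΔZF1 did not meet this (lowest correlation 0.0126, highest with the own number in 3 of 8). WT NPCs and ESCs also correlated best with the own number in 8 of 8. Their lowest correlation was 0.0535, and they were not counted as paired. The main limma fits used no block in any comparison, also not for the ESC groups counted as paired. For WT NPCs against ESCs, the replicate block raised the calls from 0 to 6 of 174 lncRNA promoter sites, so this count depended on the choice.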

Additional observations from a re-analysis of the deposited data

Results flagged for a closer look

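In groups of 4 libraries, 4 of the 44 groups tested had 1 library far from the other three in fold enrichment, and chance alone gives about 1 in 20 groups. At Gm16172, NPC-WT replicate 4 stood apart at 20.21 from 39.1, 38.66 and 39.42. At the same site, NPC-ΔZF1 replicate 2 stood apart at 43.84 from 17.57, 13.37 and 17.58. Gm17552 had 57.15 in ESC-WT replicate 1 and 24.95 to 30.23 in the others. 4930553P18Rik had 57.63 in ESC-ΔZF1 replicate 1 and 22.79 to 28.11 in the others. The ESC cases were both replicate 1, the longest list of its group.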

How the results depend on the processing

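Peak-list length and depth limit every count here, since a site without a call may be bound below the threshold. Switches under altered settings were counted at lncRNA promoter sites. No share over all sites stands beside them, so they are not read as particular to these promoters. With equal peak numbers, 320 sites remained in the rule, with 71.9% holding the motif. The kept shares were 79.3% in ESC-ΔZF1 and 73.4% in NPC-ΔZF1. Switches were 1 (ESC, absent in ΔZF1), 3 (NPC, absent in ΔZF1), 1 (absent in NPC-WT) and 1 (absent in ESC-WT). Smc3 overlap was 54.8% in NPC-ΔZF1, 73.6% in E14 and 64.6% in Grb10pA, and Rad21 overlap 13.7% in NPC-WT and 9.135% in NPC-ΔZF1.

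Within replicates 1 and 4, 86.0% (ESC) and 71.0% (NPC) were kept. Switches to absent and to present were 1 and 33 for ESC-ΔZF1, 15 and 38 for NPC-ΔZF1, and 12 and 20 for NPC-WT against ESC-WT. Smc3 overlap was 42.6% in ESC-ΔZF1 and 68.0% in NPC-ΔZF1, and Rad21 overlap 13.3% in NPC-ΔZF1. Within replicates 2 and 3, 59.0% and 33.1% were kept, and switches were 31 and 5, 109 to absent, and 18 and 25. With only 2 libraries in each group, more switches are possible by construction.

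With reproducible set at 2 of 4, 82.8% (ESC) and 67.8% (NPC) were kept. A window of 500 bp gave 3 NPC switches, 85.1% shared between WT cell types and the motif at 48.7%, and 2 kb gave 75.6% and 65.7%. The motif share was 61.9% with coding transcript starts, 62.3% at 3 libraries, and 33.3% or 80.5% with 1 or 3 mismatches. At a −log10 q of 5 it was 61.1%, with 3 NPC switches and 1 between WT cell types. Smc3 peaks in both libraries were at 45.5% (E14), 38.1% (PodxlpA) and 36.7% (Grb10pA).

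With the replicate number as a block, limma called 0 lncRNA promoter sites for ESC-ΔZF1 (3 over all sites) and 6 for WT NPCs against ESCs. On log2 fold it called 6 there and 9 for Grb10pA, where the cause was not tested. Over sites needing calls in 4 of 8 libraries, with missing calls set to the library's lowest score, it called 4 of 412 for NPC-ΔZF1 (0.971%, against 1.13% over all sites), all lower, as all 199 calls over all sites were. A site called in all 4 NPC-WT libraries and in no NPC-ΔZF1 library entered through WT alone, with its ΔZF1 scores set to the lowest. A lower call at such a site was largely fixed by the filter, so no conclusion is drawn from these calls. Over all sites, 223 of 8851 called in every NPC-WT library were called in no NPC-ΔZF1 library, and 0 of 2519 the other way. Why all limma calls were lower was not tested. The block changed no other limma count of lncRNA promoter sites.

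Leaving out 1 library, with 2 of 3 then reproducible, kept 59.2% to 89.4% in ESCs, 36.9% to 74.5% in NPCs (highest without NPC-ΔZF1 replicate 3) and 67.5% to 89.4% between WT cell types. The difference in called share was −11.9 to 7.97 points for ESC-ΔZF1, −26.5 to −6.94 for NPC-ΔZF1 and −4.54 to 10.4 for WT NPCs against ESCs. Switches to absent and to present were 0 to 4 and 0 to 1 for ESC-ΔZF1 (3 without WT replicate 4, 4 without ΔZF1 replicate 1, and 1 to present without WT replicate 1 or ΔZF1 replicate 2). They were 5 to 24 and 0 to 0 for NPC-ΔZF1 (24 without WT or ΔZF1 replicate 4), and 0 to 6 and 0 to 10 between WT cell types (absent 1 without ESC-WT replicate 3 or NPC-WT replicate 2 and 6 without ESC-WT replicate 4, present 10 without ESC-WT replicate 1 and 6 without NPC-WT replicate 3). Smc3 overlap was 37.05% to 66.0% (ESC-WT), 41.4% to 60.4% (ESC-ΔZF1), 48.5% to 75.3% (NPC-WT), 70.2% to 89.65% (NPC-ΔZF1), 50.8% to 62.1% (E14), 40.7% to 61.5% (PodxlpA) and 44.1% to 52.0% (Grb10pA). Rad21 overlap was 19.2% to 42.6%, 7.42% to 11.4%, 23.1% to 29.2% and 16.5% to 35.8% in the 4 rescue groups (16.5% and 17.8% without CTCF NPC-ΔZF1 replicate 2 and 3). The motif share was 57.4% to 61.0% of 849 to 912 sites. Limma called 0 to 1 for ESC-ΔZF1 (1 without ΔZF1 replicate 2, 0.645%, against 0.271% over all sites). It called 0 to 3 for WT NPCs against ESCs (3 without NPC-WT replicate 3, 1.69%, against 1.29% over all sites). In the other 4 comparisons it called 0.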
